A study of Mus musculus with 10 samples.

Results

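The 7 genes described here are *Trh*, *Trhr*, *Trhde*, *Thra*, *Thrb*, *Dio2* and *Dio3*, taken by symbol from the 48397 genes of the count table as the hypothalamic arm of the thyroid hormone axis and its feedback. All 7 symbols were in the table, 5 had UMIs (unique molecular identifiers, each counting 1 captured RNA molecule) and 2 had none. Their levels were followed across the 15 clusters to which the study assigned its cells, with the plate as the replicate.

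Thyrotropin-releasing hormone is a tripeptide made by neurons of the paraventricular hypothalamus (PVH), and part of these neurons release it to the pituitary, where it drives the secretion of thyrotropin and, through it, the thyroid gland. Thyroid hormone acts back on the hypothalamus through the nuclear receptors encoded by *Thra* and *Thrb*, and lowers transcription of the *Trh* gene. Deiodinases set how much active hormone reaches the receptors, the type 2 enzyme of *Dio2* making it and the type 3 enzyme of *Dio3* inactivating it, while the ectoenzyme encoded by *Trhde* breaks down the released peptide and *Trhr* encodes a cell surface receptor for it.

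Cells were picked by hand from the PVH of male mice older than 7 weeks that carried *Agrp*-IRES-Cre and the Ai9 tdTomato reporter, and were sequenced one per well on 10 plates whose names start with Q, AL or JM. The Cre labels neurons that express *Agrp*, whose axons fill the PVH. The study's methods name this axon field as the means to find the border of the PVH, while the labels call the picked cells tdTomato positive, and which of these holds for the cells cannot be told from the sources used here. All plates were of 1 condition with no treatment contrast, and the labels do not tie plates to animals, so p-values measure only the spread between plates. Of 960 wells, 706 cells were in the study's annotation, 664 of them in 12 PVH clusters and 42 in clusters 5, 6 and 11, which the study did not count as PVH. A plate held 43 to 87 annotated cells. Cells had 50646 to 1078101 UMIs, with a median of 235270 on the 4 Q plates and 85167 on the 6 AL and JM plates. The pan-neuronal gene *Snap25* had UMIs in 652 of the 664 PVH cells and *Otp*, a PVH transcription factor, in 641, while *Slc32a1*, the vesicular GABA transporter, had 0. The other 2 listed GABAergic markers, *Gad1* and *Gad2*, had UMIs in PVH cells. At least 1 of them was found in 95 cells, with a summed level of up to 456 CPM, in cluster 13. The clusters were drawn by the study from the same cells, so each test between clusters below says how steady a difference was over plates and is no independent evidence for it. Levels are counts of a gene per 1000000 UMIs (CPM), from the UMIs summed over the cells of a cluster on a plate, where there were at least 3 such cells.

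*Trh* lies at chr6:92242061-92244650 on the minus strand of GRCm38. Its upstream 250 bases, at chr6:92244651-92244900 of GRCm38.p6 from RefSeq, are shown because this is the stretch of DNA through which the feedback on *Trh* is known to act. The motif AGGTCA, the core of a thyroid hormone receptor site, was searched on both strands, and its reverse complement is in capitals.
*Trh*, upstream, 5′ to 3′: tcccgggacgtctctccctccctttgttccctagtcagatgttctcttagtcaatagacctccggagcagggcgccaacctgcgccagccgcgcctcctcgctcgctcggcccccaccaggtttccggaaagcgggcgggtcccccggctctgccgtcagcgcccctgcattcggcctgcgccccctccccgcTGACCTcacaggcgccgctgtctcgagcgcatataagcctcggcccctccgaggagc
The match starts 57 bases before the start site. Of 32851 promoters in the same annotation, 4607 (14%) held the motif in a window of that length. *Thrb* held it in 1 of its 2 windows, and the windows of *Trhde*, *Dio2* and *Dio3* did not hold these letters. A match of 6 letters is a description of the sequence and not a binding site.

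*Trh* was detected in a minority of PVH cells and was carried by few clusters. At least 1 UMI was found in 138 of 664 PVH cells (20.8%, exact 95% interval 17.8 to 24.1%), but 59 of these cells had exactly 1 UMI and 71 cells (10.7%) had 3 or more. On the deeper Q plates the share was 31.6% and on the AL and JM plates 11.5%, and with all cells thinned to 63046 UMIs it was 14.2% of the PVH cells kept. Single *Trh* UMIs were also found in 3 of the 25 cells of non-PVH cluster 6 (12%, median 150672 UMIs per cell) and in 4 of 93 near-empty wells (median 118 UMIs), so a low share of cells with 1 UMI is at background. Intervals and limits here cover counting error only.

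Clusters 9 and 15 together held 70.3% of the 30058 *Trh* UMIs of PVH cells, and with cluster 8 they held 90.0%. In cluster 9, *Trh* was at 1914 CPM on plate Q6, 2357 on Q5, 2737 on Q7 and 3504 on JM8. All 4 plates were high, and their mean of 2628 ± 674 CPM (SD, n = 4) was the highest of the 13 clusters with sums. Of its 25 cells, 22 had *Trh* (88.0%, exact 95% interval 68.8 to 97.5%), each with 3 or more UMIs, and 17 (68.0%) had at least 1000 CPM.

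Cluster 15 was uneven, both between plates and between cells. Its 8 plates ran from 0 CPM on JM6, where none of 5 cells had a *Trh* UMI, over a median of 973 to 5306 CPM on AL5, with a mean of 1512 ± 1732 CPM (SD, n = 8). Only 25 of its 60 cells had *Trh* (41.7%, exact 95% interval 29.1 to 55.1%), and 22 of these had 3 or more UMIs. The 14 cells at 1000 CPM or more had a median of 4749 CPM, against 3389 CPM in the 17 such cells of cluster 9, which is a description with no test. Thinning left the shares at 87.0% in cluster 9 and 42.0% in cluster 15.

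Cluster 8 reached its mean of 508 ± 1006 CPM (SD, n = 4) through 1 plate, with 0 CPM on Q5, 0.721 on Q6, 13.2 on Q8 and 2016 on Q7. A single cell held 52.4% of its *Trh* UMIs. In cluster 13 the 3 plates were at 125, 437 and 533 CPM, each from 1 or 2 cells. Cluster 10 (141 ± 246 CPM, n = 7) rested on Q6 at 603 and Q7 at 372, with the other 5 plates at or below 4.60, and cluster 14 (71.9 ± 126 CPM, n = 8) on JM7 at 299 and Q5 at 251. Means were low elsewhere, at 5.96 ± 13.3 CPM for cluster 1, 3.45 ± 5.02 for cluster 2, 1.82 ± 3.91 for cluster 12, 1.30 ± 1.75 for cluster 7 and 0.572 ± 1.01 for cluster 3. Cluster 6 was at 0.227 ± 0.507 CPM (n = 5), below all these. Cluster 4 had no UMI in its 22 cells, so the share there may reach 13.6%. The plate ranges of all neighbours in this order overlapped, so no step between them was larger than the spread over plates.

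**Figure D1:**
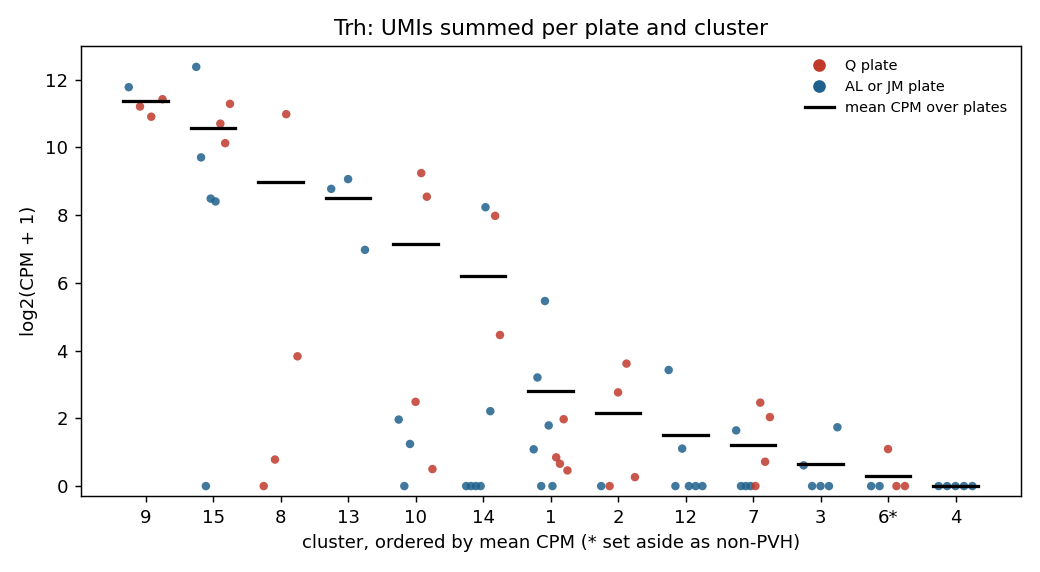
*Trh* level on each plate, as log2(CPM + 1), for each cluster ordered by its mean, with Q plates in red, AL and JM plates in blue and a black bar at the mean CPM of a cluster. The 4 plates of cluster 9 sit together between 1914 and 3504 CPM, while those of cluster 15 spread from 0 to 5306 CPM.

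**Figure D2:**
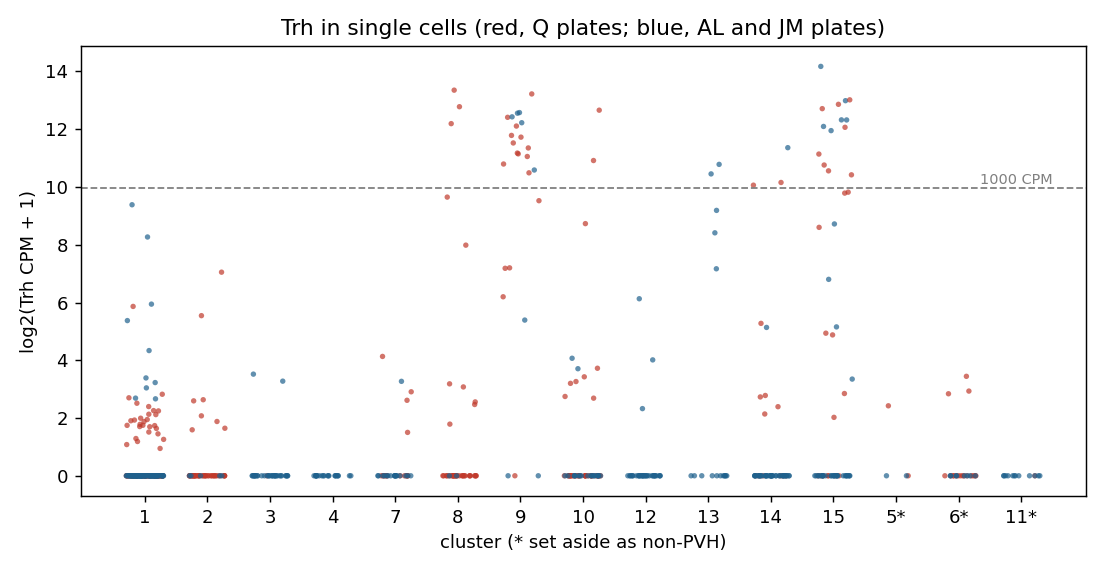
*Trh* level of each cell, as log2(CPM + 1), by cluster, with a dashed line at 1000 CPM. Of the 41 PVH cells above the line, 17 belong to cluster 9 and 14 to cluster 15, and the remaining 10 are spread over clusters 8, 10, 13 and 14.

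In the fit over all 12 PVH clusters, *Trh* (edgeR's quasi-likelihood test, Benjamini-Hochberg adjusted p = 3.25e-08), *Trhde* (adjusted p = 1.46e-08) and *Trhr* (adjusted p = 0.00662) varied between clusters. *Thrb* (adjusted p = 0.0635) and *Thra* (adjusted p = 0.406) did not pass, and *Dio2* and *Dio3* had nothing to test. So 3 of the 5 members tested passed, where 21.2% of all genes did. On the Q plates alone 1 member passed, *Trh*, with adjusted p = 0.263 for *Trhr* and 0.0829 for *Trhde*. With DESeq2 *Thrb* passed (adjusted p = 0.0498), as it did on the AL and JM plates alone (edgeR adjusted p = 0.0144), and *Trhr* got no adjusted p in either. *Thrb* also passed by edgeR with no filter on low counts (adjusted p = 0.00847) and without plate Q7 (0.0238), JM7 (0.0151) or JM8 (0.0420).

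Each cluster was also set against the other PVH cells of the same plates. Of 48 such tests of a member, 10 passed, 2 higher and 8 lower, where 3.29% of all tests did. Of the 8 lower calls, 6 were of *Trh* in clusters with little of it, set against rests that held the *Trh*-rich cells. *Trh*, *Thra* and *Thrb* could be tested in all 12 clusters, *Trhde* in 11 and *Trhr* in 1, the rest having too few UMIs. Among all genes the share past the threshold was 11.9% for cluster 1, 1.26% for cluster 2, 2.95% for cluster 3, 0.67% for cluster 4, 6.08% for cluster 7, 0.0734% for cluster 8, 1.25% for cluster 9, 4.46% for cluster 10, 1.92% for cluster 12, 1.4% for cluster 13, 5.4% for cluster 14 and 1.88% for cluster 15. Sums of few cells were set against larger ones in these fits, and the median log2 fold change of all genes was not 0. It was -0.82 for cluster 9, -0.66 for cluster 8, -0.50 for cluster 15, -0.39 for cluster 14, -0.32 for cluster 3 and -0.08 for cluster 1, and the fold changes below are to be read beside these. For cluster 15 over cluster 9 it was 0.14, and for PVH over non-PVH cells 0.55.

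*Trh* was higher in cluster 9 than in the rest of its plates (log2 fold change 4.04, SE 0.51, edgeR adjusted p = 0.0296, 4 of 4 plates). This call was lost without plate Q5 (adjusted p = 0.134) and without plate Q6 (adjusted p = 0.277), with log2 fold changes of 4.07 and 4.09. It was also lost with size factors by relative log expression (edgeR adjusted p = 0.118) and with no filter on low counts (edgeR adjusted p = 0.274). *Trh* was lower in clusters 1, 2, 3, 4, 7 and 12, with edgeR adjusted p from 1.08e-08 in cluster 7 to 0.0104 in cluster 1. Clusters 3, 4, 7 and 12 held 2, 0, 8 and 7 *Trh* UMIs, so the gene entered those fits only through the other cells. These lower calls mirror the clusters that carry *Trh* and are no separate evidence. In cluster 1, by far the largest with 221 cells, *Trh* was lower on 9 of 10 plates, and 30 of its 38 cells with *Trh* had a single UMI. On the AL and JM plates alone the call in cluster 1 was lost (edgeR adjusted p = 0.259). Clusters 8, 10, 13, 14 and 15 did not pass in either direction, cluster 15 at a log2 fold change of 2.98 (SE 1.35, edgeR adjusted p = 0.395). DESeq2 called *Trh* higher in cluster 15 (adjusted p = 0.0289).

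Clusters 9 and 15 were compared directly, since both lead in *Trh*. None of the 5 members tested differed between them by edgeR, where 0.749% of all genes did, and 0 had an unadjusted p under 0.05 or passed with DESeq2. The log2 difference of *Trh*, cluster 15 over cluster 9, was -0.56 (SE 1.87, adjusted p = 0.962 by edgeR). Its sign depended on 1 plate: without JM8 it was 1.48. For *Thrb* the log2 difference was -2.68 (SE 1.89, edgeR adjusted p = 0.589), and for *Trhr* 1.42 (SE 1.75, edgeR adjusted p = 0.815). With standard errors of this size, large differences in both directions were not detectable.

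Against the non-PVH clusters, 1 of the 5 members tested passed, again *Trh*, where 1.04% of all genes did. On the 5 plates with at least 3 cells of each kind, *Trh* was at 22.3 to 537 CPM in PVH cells and at 0 to 1.13 CPM in non-PVH cells, which had 2 UMIs in all, and the groups did not overlap (edgeR adjusted p = 4.57e-06, higher on 5 of 5 plates). With 2 UMIs in the non-PVH cells, *Trh* entered this fit only through the PVH cells. *Trhde* was at 13.7 ± 8.11 CPM in PVH and 28.9 ± 35.2 CPM in non-PVH cells (n = 5, edgeR adjusted p = 0.974).

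*Trhr*, the receptor for the peptide, was rare. It had 200 UMIs in 15 of 664 PVH cells (2.26%, exact 95% interval 1.27 to 3.70%), with 5 cells each from clusters 9 and 15, 2 from cluster 7 and 1 each from clusters 4, 8 and 14. Cluster 1 had no UMI of it over its 221 cells, so its share may reach 1.36%. Clusters 9 and 15 held 53.5% of its PVH UMIs, and 1 cell of cluster 7 held 53 UMIs. The mean was 12.6 ± 21.4 CPM in cluster 15 (n = 8) and 8.23 ± 10.7 CPM in cluster 9 (n = 4), so in both the spread over plates was larger than the mean. In the non-PVH cells 7 of 42 had *Trhr* (16.7%), among them 5 of the 25 cells of cluster 6, all with 3 or more UMIs. Cluster 6 was at 0, 11.1, 26.2, 38.4 and 77.1 CPM on its 5 plates, the highest mean of all clusters (30.5 ± 29.8 CPM), yet PVH and non-PVH sums overlapped and *Trhr* did not pass between them (edgeR log2 fold change -2.39, SE 1.47, adjusted p = 0.572). Both *Trh* and *Trhr* were found in 7 PVH cells.

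*Trhde*, which encodes the TRH-degrading ectoenzyme, had its own distribution, led by cluster 14. It was found in 126 of 664 PVH cells (19.0%, exact 95% interval 16.1 to 22.2%), 89 with 3 or more UMIs, and in 8 of 42 non-PVH cells (19.0%). In cluster 14, 46 of 57 cells had it (80.7%, exact 95% interval 68.1 to 90.0%) and its 8 plates ran from 40.7 over a median of 89.6 to 147 CPM. The other PVH cells of the same plates were at 2.75 to 26.2 CPM, so the groups did not overlap, and *Trhde* was higher on 8 of 8 plates (log2 fold change 2.84, SE 0.44, edgeR adjusted p = 0.00101). This call held in 16 of 16 alternatives, though leaving out plate Q6 or Q8, which gave no sum of cluster 14, repeated the main fit.

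Behind cluster 14 came clusters 12 (46.8 ± 45.2 CPM, n = 6), 15 (46.6 ± 61.9 CPM, n = 8), 6 (41.8 ± 42.4 CPM, n = 5) and 9 (36.9 ± 16.9 CPM, n = 4), whose plate ranges overlapped. Cluster 9 ran from 18.4 to 56.0 CPM and cluster 15 from 3.53 to 174 CPM. Neither was called against the rest (edgeR log2 fold change 1.70, SE 1.39, adjusted p = 0.603 in cluster 9, and 0.65, SE 0.85, adjusted p = 0.754 in cluster 15). Cluster 13 followed at 9.11 ± 4.30 CPM (n = 3), and its plates did not overlap those of cluster 9. Its sums on AL5, AL6 and JM6 held 3, 1 and 4 of its 42 *Trhde* UMIs. The rest lay on plates with fewer than 3 of its cells, and no plate gave a sum of both clusters. The share of cells with *Trhde* was 50.0% in cluster 13 and 48.0% in cluster 9, so the gap in CPM is no sign of a difference. At the other end, cluster 1 had *Trhde* in 4 of 221 cells, each with 1 UMI. On its 10 plates it was at 0 to 1.23 CPM against 2.62 to 56.5 CPM in the rest, with no overlap and lower on 10 of 10 plates (edgeR adjusted p = 1.47e-07). With 4 UMIs in cluster 1, *Trhde* entered this fit only through the other cells. None of the 35 cells of cluster 7 had a UMI. Clusters 9 and 15, which carried most of the *Trh*, held 42.9% of the *Trhde* UMIs, and cluster 14 held 36.9%.

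**Figure D3:**
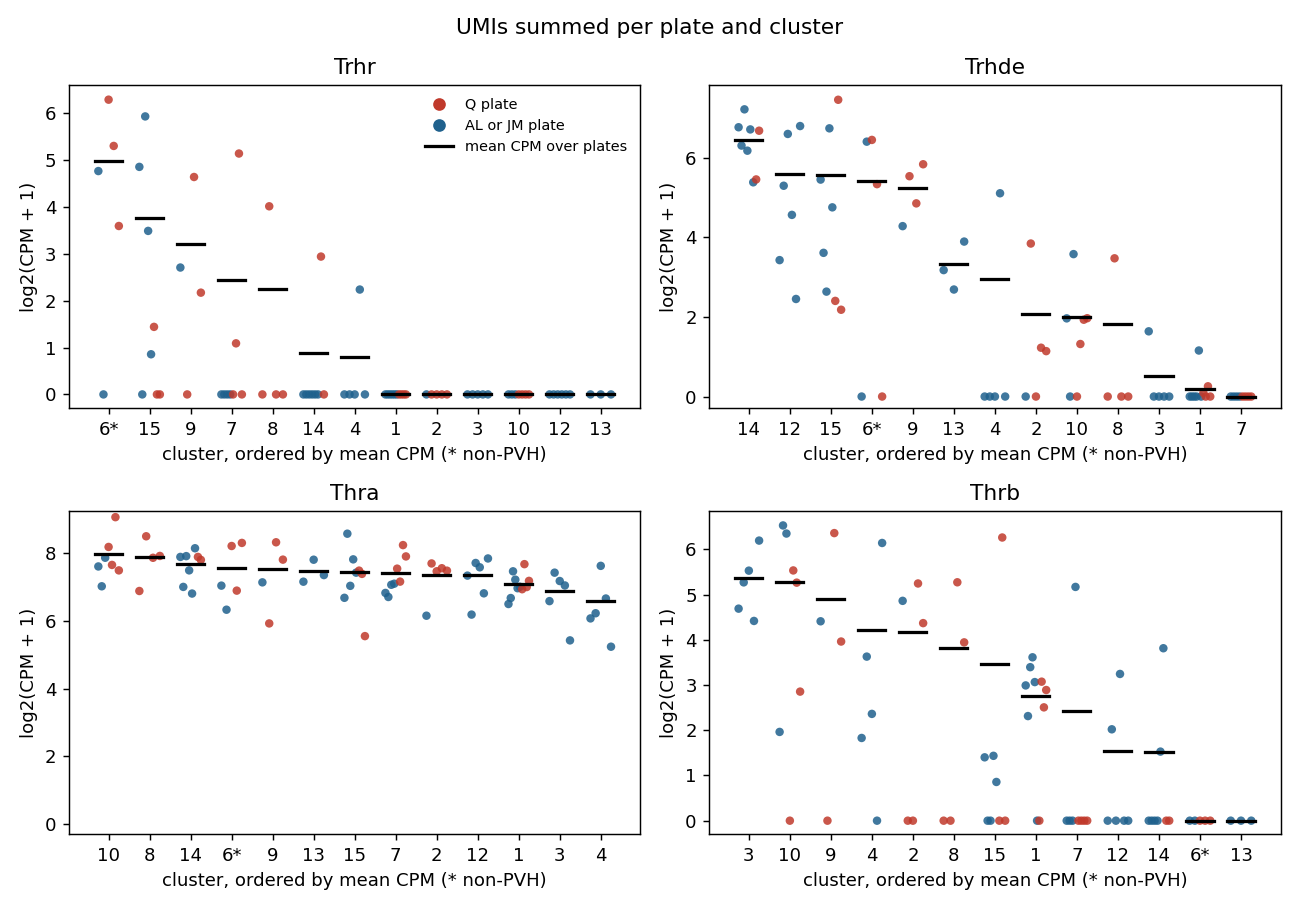
Levels of *Trhr*, *Trhde*, *Thra* and *Thrb* on each plate, as log2(CPM + 1), by cluster in 4 panels, with Q plates in red, AL and JM plates in blue and black bars at the mean CPM. All 8 plates of cluster 14 are high for *Trhde*, *Thra* is present in every cluster, and the points of *Trhr* and *Thrb* spread down to 0 within most clusters.

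*Thra*, the alpha thyroid hormone receptor, was found almost everywhere, with UMIs in 643 of 664 PVH cells (96.8%). Its mean ran from 94.8 ± 61.3 CPM in cluster 4 (n = 5) to 251 ± 134 CPM in cluster 10 (n = 7), with 175 CPM in cluster 15 and 186 in cluster 9, and the plate ranges of neighbours in this order overlapped throughout. In cluster 1 it was at 136 ± 33.7 CPM against 180 ± 43.8 CPM in the other cells of the same plates (n = 10), and the ranges overlapped. It was lower on 10 of 10 plates there, by a small amount (edgeR log2 fold change -0.29, SE 0.09, adjusted p = 0.0488). This call was lost in 15 of 17 alternatives, among them leaving out any 1 of the 10 plates, with edgeR adjusted p up to 0.500. It was kept with DESeq2 (adjusted p = 0.0455). Sums of at least 5 cells left the same sums for cluster 1 and so repeated the main fit (edgeR adjusted p = 0.0488). *Thra* (chr11:98740638-98769006, plus strand) overlaps *Nr1d1* (chr11:98767932-98775333, minus strand) over 1075 bases, and whether the counting used strand is not stated, so its values are uncertain. *Nr1d1* had UMIs in 187 PVH cells (28.2%).

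*Thrb*, the beta receptor, which takes the larger part in the feedback on *Trh*, was found in 96 of 664 PVH cells (14.5%, exact 95% interval 11.9 to 17.4%), and in none of the 93 near-empty wells. In cluster 3 it was at 20.4, 24.8, 37.6, 45.2 and 72.3 CPM on JM7, AL5, AL6, JM6 and JM8, a mean of 40.1 ± 20.6 CPM. All 5 plates exceeded the rest of their plate, but the test did not pass (edgeR log2 fold change 2.15, SE 0.68, adjusted p = 0.119), while DESeq2 called it (adjusted p = 0.000635). Cluster 10 was at 37.7 ± 37.4 CPM (n = 7, from 0 to 91.4) and cluster 9 at 29.0 ± 35.8 CPM (n = 4), with 0 on Q5, 14.6 on Q7, 20.3 on JM8 and 81.2 on Q6, the last from 1 cell. In cluster 15 the level on Q7, 75.8 CPM, made up most of the mean, and 7 of 60 cells had *Thrb*. In cluster 14, where *Trhde* led, *Thrb* was at 0 on 6 of 8 plates and at 1.88 and 13.1 CPM on the other 2. It was lower than in the rest on 7 of 8 plates, with both at 0 on Q5, without passing (edgeR log2 fold change -4.04, SE 1.20, adjusted p = 0.0653; DESeq2 adjusted p = 0.0360). All neighbours in the order of *Thrb* means overlapped.

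*Dio2* and *Dio3* had 0 UMIs in all 960 wells, so for the 664 PVH cells the share may reach 0.452% and for the 42 non-PVH cells 7.14%. *Dio1*, the remaining deiodinase, had 2 UMIs in 1 cell. Whether the counting could have missed them was not tested. In the hypothalamus *Dio2* is known from tanycytes and astrocytes, and markers of these cells were low among PVH cells. Of 5 tanycyte and ependymal markers 3 had UMIs, with *Rax* and *Fndc3c1* at 0, and their summed level was 1.47 to 132 CPM over PVH clusters, in cluster 3, the highest, nearly all from *Vim*. All 7 astrocyte markers had UMIs, summing to 0.940 to 39.7 CPM, with *Aqp4* in 5 cells and *Gfap* in 1. The part of this in the count of 0 was not tested.

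**Figure D4:**
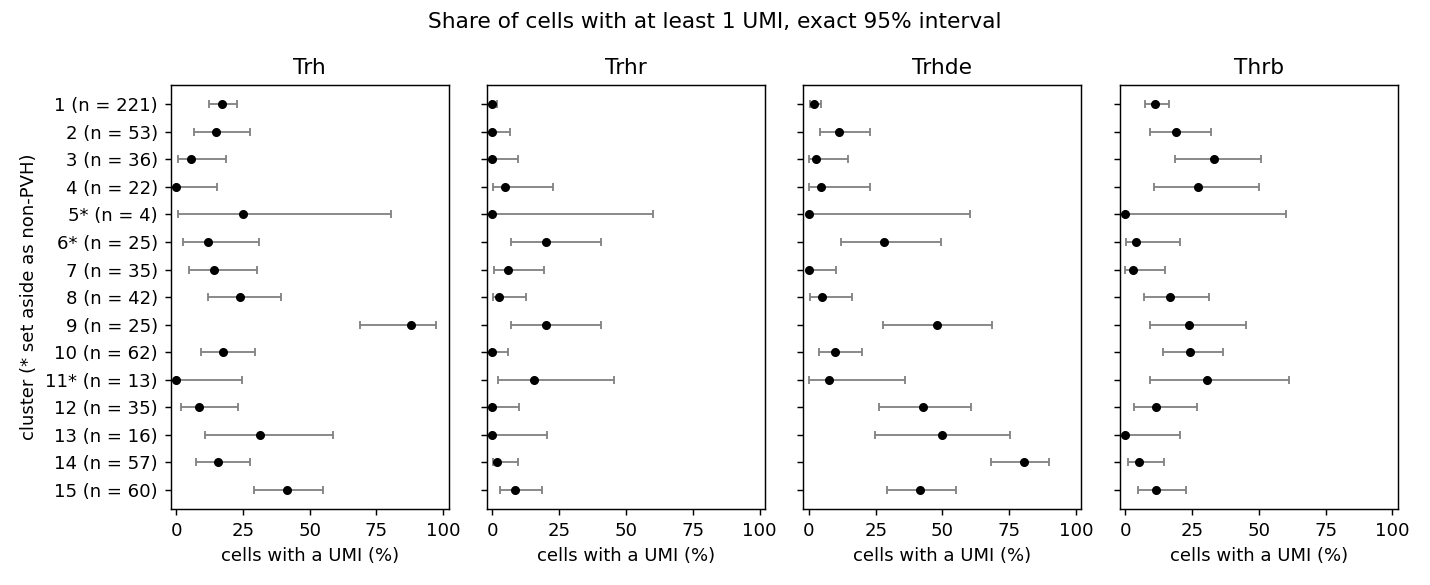
Share of cells with at least 1 UMI of *Trh*, *Trhr*, *Trhde* and *Thrb* in each cluster, with exact 95% intervals. *Trh* stands at 88.0% in cluster 9 and *Trhde* at 80.7% in cluster 14, while *Trhr* is at 20% in both cluster 9 and the non-PVH cluster 6.

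Whether the other members were found more often in cells rich in *Trh* was asked within plates, between the 41 PVH cells with at least 1000 CPM of *Trh* and the 623 other PVH cells. *Trhde* was found in 16 of the 41 (39.0%) and in 110 of the 623 (17.7%). On the 7 plates with at least 3 cells on each side, the 2 shares were 80.0 and 14.3% on Q5, 16.7 and 7.69% on Q6, 41.7 and 17.7% on Q7, 50.0 and 7.89% on Q8, 25.0 and 13.9% on AL5, 0 and 33.3% on JM7, and 60.0 and 34.4% on JM8. The *Trh*-rich cells had the higher share on 6 of 7 plates, by 20.6 ± 30.7 percentage points (SD, n = 7), and the difference did not pass (p = 0.125 by an exact permutation test, two-sided, or 0.469 adjusted for the 6 members). On 7 plates the smallest p this exact test can give is 0.015625, with which 1 member alone could not pass after adjustment. With thinned cells the difference was 31.6 points and positive on 6 of 6 plates, where p = 0.03125 is the smallest the exact test can give (adjusted 0.1875). Within clusters 9 and 15 alone there was no such excess, with *Trhde* in 13 of 31 *Trh*-rich and 24 of 54 other cells.

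*Thrb* was found in 12 of the 41 *Trh*-rich cells (29.3%) and 84 of the 623 others (13.5%), by 9.46 ± 22.6 points over plates, higher on 4 and lower on 2 of 7 (exact permutation p = 0.3125, adjusted 0.469). Within clusters 9 and 15 it was in 8 of 31 (25.8%) and 5 of 54 (9.26%), higher on 3 plates and lower on none of 5 (exact permutation p = 0.25, where 0.0625 is the smallest possible). *Trhr* was in 3 of 41 (7.32%) and 12 of 623 (1.93%), and *Thra* in 92.7 and 97.1%, and neither passed (adjusted p = 0.469 by the exact permutation test for both). The median total was 153729 UMIs in the *Trh*-rich cells and 128573 in the others. Both *Trh* and *Thra* had UMIs in 134 PVH cells, *Trh* and *Trhde* in 36, and *Trh* and *Thrb* in 27.

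**Figure D5:**
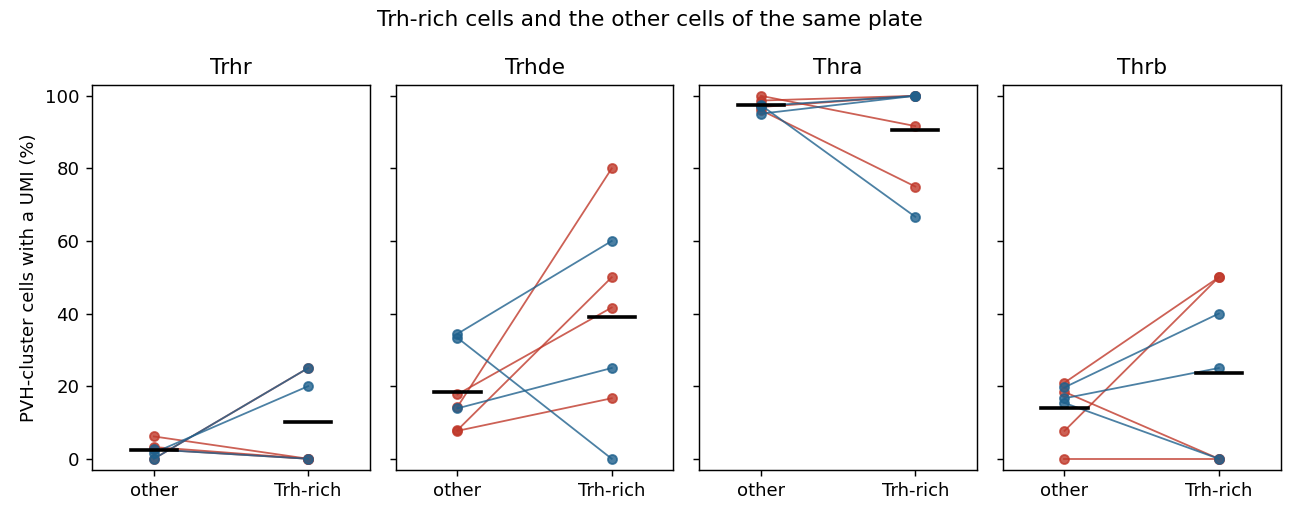
Share of cells with a UMI of each of the other members in *Trh*-rich cells and in the other PVH cells of the same plate, with lines joining the 2 shares of a plate and black bars at the means. The lines for *Trhde* rise on 6 of 7 plates, and those for *Thrb* go both ways.

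The Q plates were deeper than the AL and JM plates, and no member passed between them by the exact two-sided permutation test. With 4 plates against 6 and adjustment over 7 members, 1 member alone could not pass at any separation. The test therefore cannot show that the plates are alike. *Trh* was at 259 ± 192 CPM on the 4 Q plates and 157 ± 146 CPM on the 6 others (exact permutation p = 0.276). *Trhde* was at 8.55 ± 8.52 and 23.0 ± 13.4 CPM (exact permutation p = 0.0571, adjusted over 7 members 0.400), and *Thra* at 185 ± 29.0 and 146 ± 35.5 CPM (exact permutation p = 0.114, adjusted 0.400). The make-up of clusters also differed between these plates, and the 2 cannot be told apart.

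At least 1 of the 8 listed genes for cutting and finishing the TRH precursor had UMIs in each of the 664 PVH cells, and likewise in each of the 42 non-PVH cells. The list holds enzymes with a chaperone and an inhibitor of them, and none of the 8 was called higher in cluster 9 or 15. Of these, 6 varied between clusters by edgeR (*Pam*, *Scg5*, *Pcsk2*, *Pcsk1n*, *Cpe* and *Pcsk1*), against 21.2% of all genes. In cluster 9, where 1.25% of all genes passed, none was called higher and 2 were called lower. These were *Scg5*, the chaperone of a prohormone convertase (log2 fold change -0.69, SE 0.15, edgeR adjusted p = 0.0278) and *Cpe*, a carboxypeptidase (-0.98, SE 0.22, edgeR adjusted p = 0.0312). The list's median there was -0.73, against -0.82 for all genes, so *Scg5* was no lower than the typical gene of that fit. In cluster 15, 4 were called lower and none higher, where 1.88% of all genes passed. Among them were *Pcsk1*, a prohormone convertase that cuts the TRH precursor (log2 fold change -3.19, SE 0.48, edgeR adjusted p = 0.00116) and *Pam*, which adds the terminal amide (-1.29, SE 0.17, edgeR adjusted p = 0.000327). Also among them, *Scg5* (-0.57) and *Pcsk1n* (-0.51) were near the median of all genes, -0.50. In cluster 14, 5 were called lower and none higher, where 5.4% of all genes passed. Of these, *Pcsk1n* (-0.29) lay above the median of all genes, -0.39. Over all cells of a cluster, the scale also used for the genes below, *Pcsk1* was at 25.6 CPM in cluster 15 and 81.6 in cluster 9, against 163 over all PVH cells, and *Pcsk2*, the other convertase, was at 201 CPM in cluster 15. PVH cells had more *Pcsk1* than non-PVH cells (edgeR log2 fold change 6.50, SE 0.66, adjusted p = 0.000444). There 3 of the 8 genes (*Pcsk1*, *Pam* and *Scg5*) were called higher and none lower, where 1.04% of all genes passed. The list's median was 0.76, against 0.55 for all genes, and *Scg5* was at 0.68.

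Of the 9 listed genes of inputs to TRH neurons, 6 of 8 tested varied between clusters by edgeR (*Npy5r*, *Npy1r*, *Socs3*, *Cartpt*, *Adcyap1* and *Mc4r*), where 21.2% of all genes did. *Adcyap1*, which encodes the peptide PACAP, was higher in cluster 9 on 4 of 4 plates (log2 fold change 3.63, SE 0.43, edgeR adjusted p = 0.000166), at 228 CPM there and 68.5 in cluster 15. It was the only one of the 7 tested in cluster 9 that passed, where 1.25% of all genes did. *Cartpt*, the precursor of the CART peptides, was at 2996 CPM in cluster 9 and 988 in cluster 15 and higher on 4 of 4 plates in cluster 9 without passing (log2 fold change 2.95, SE 0.77, edgeR adjusted p = 0.221). *Mc4r* and *Npy1r*, receptors for melanocortins and neuropeptide Y, had 0 UMIs in cluster 9 and were highest in cluster 7, at 67.5 and 148 CPM. Neither passed as lower in cluster 9 (edgeR adjusted p = 0.113 for both). With 0 in its 25 cells, the share of cells there may reach 12%. *Lepr*, the leptin receptor, was found in 6 PVH cells.

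Genes that carry or answer thyroid hormone are given beside the 21.2% of all genes that varied between clusters. Of the transporters, *Slc7a5* and *Slc7a8*, amino acid carriers that also take up thyroid hormone, did not pass between clusters (edgeR adjusted p = 0.982 and 0.517), and they were found in 196 and 172 PVH cells (29.5 and 25.9%). Of the 9 partners and coregulators of the receptors, 1 varied, *Rxrg*, a retinoid X receptor that pairs with them (edgeR adjusted p = 0.000663). It was highest in cluster 9, at 116 CPM, and higher on 4 of 4 plates there without passing (log2 fold change 1.86, SE 0.61, edgeR adjusted p = 0.115). Of 7 genes known to respond to thyroid hormone, 5 were tested and 2 varied between clusters, *Thrsp*, highest in cluster 10 at 91.9 CPM and at 60.0 in cluster 9, and *Nrgn*, highest in cluster 14 at 23.2 CPM. In the list of the other deiodinase and of binding proteins, 1 of 1 tested varied, *Ttr*, with UMIs in 7 cells. Of 5 pituitary and thyroid genes none had enough UMIs to test, and of *Trhr2* and *Pgpep1*, a second receptor and a peptidase, 1 was tested, *Pgpep1*, and did not pass (edgeR adjusted p = 0.125).

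Likeness to each member was described by Pearson's r between log2(CPM + 1) values of the 73 sums of plate and cluster, among 16384 genes. The sums share plates, depth and clusters, so r is given with no p. Among the genes most like *Trh* were *Cbln2* (r = 0.72), which encodes a secreted cerebellin, and the transcription factor *Ebf1* (r = 0.63). *Cbln2* was at 497 CPM in cluster 9 and 151 in cluster 15. Most like *Trhde* were *Cbln1*, *Ntng1* and *Caln1*, each at r = 0.76, with *Ntng1* at 230 CPM in cluster 14 and 145 in cluster 15. *Thra* was closest to *Ank2* (r = 0.59), *Elavl3* (r = 0.56) and *Rph3a* (r = 0.53), and *Thrb* to *Hspa5* (r = 0.55), *Tac1* (r = 0.55) and *Trpc5* (r = 0.54). *Tac1*, the precursor of substance P, was at 1126 CPM over the cells of cluster 3, where *Thrb* had its highest mean over plates (40.1 ± 20.6 CPM). In cluster 10, where *Thrb* was at 37.7 ± 37.4 CPM over plates, *Tac1* was at 46.6 CPM. Between *Trh* and *Trhde* r was 0.36.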

How the data were processed

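Single cells were sequenced by Smart-SCRB, a plate protocol with cell barcodes and UMIs. The authors trimmed reads (Trimmomatic 0.36), aligned them to GRCm38.p5 (STAR 2.5.3a, per the submitters' processing notes), and deposited raw UMI counts for 960 wells and cluster labels for 706 cells, whose clusters the study drew with iterative gene network analysis and whose non-neuronal cells it had set aside. The strand setting of the counting is not given in the sources used here.

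Counts were summed per plate and cluster (at least 3 cells, clusters on at least 3 plates) and tested with edgeR 4.0.16 in R 4.3.3 (quasi-likelihood, TMM, filterByExpr, robust, plate as a block), adjusted by Benjamini-Hochberg over all genes tested at a threshold of 0.05. DESeq2 1.42.0 was an alternative. SE was derived from the fold change and F. Shares of cells were compared by exact permutation tests over plates in scipy 1.17.1. The edgeR script was tested on simulated data. Members and gene lists were chosen with earlier results of these data known. Named genes were the members, the listed pathway and marker genes, and the 3 genes most like each member found in over 5% of PVH cells. Plate numbers pair sums from the same plate, which the block uses. Sequences and loci came from RefSeq and GENCODE on GRCm38. Protein sequences were not used here, and some genes that this rule names are not reported here.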

Additional observations from a re-analysis of the deposited data

Results flagged for a closer look

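For a member in a cluster with 4 to 10 plates, the highest or lowest plate was set against the others by Dixon's 95% criterion, which chance alone passes in about 1 of 20 groups of normal values. That rate does not hold for these sparse sums, since a group with 1 plate above 0 passes at any level, as for *Trhr* in clusters 4, 8 and 14. Of 52 groups tested, 24 held a plate that stood apart, 23 of them high and 1 low, and 13 of the high plates rested on 1 cell with a UMI. For *Trh* these were AL5 in cluster 15 at 5306 CPM (3 of 6 cells), Q7 in cluster 8 at 2016 CPM (6 of 13 cells), JM6 in cluster 1 at 43.1 CPM, AL5 in cluster 12 at 9.75 CPM, JM8 in cluster 3 at 2.33 CPM and Q5 in cluster 6 at 1.13 CPM. For *Trhr* they were JM6 in cluster 15 at 59.9 CPM, Q7 in cluster 7 at 34.2 CPM, Q6 in cluster 8 at 15.1 CPM, Q5 in cluster 14 at 6.67 CPM and JM6 in cluster 4 at 3.71 CPM. For *Trhde* they were JM6 in cluster 4 at 33.4 CPM, Q5 in cluster 2 at 13.3 CPM, JM8 in cluster 10 at 10.9 CPM, Q6 in cluster 8 at 10.1 CPM, AL5 in cluster 3 at 2.11 CPM and JM7 in cluster 1 at 1.23 CPM. For *Thrb* they were Q7 in cluster 15 at 75.8 CPM, JM8 in cluster 4 at 69.7 CPM, JM7 in cluster 7 at 35.0 CPM, JM8 in cluster 14 at 13.1 CPM and JM6 in cluster 12 at 8.49 CPM. *Thra* stood apart on Q7 in cluster 10, high at 535 CPM, and on JM8 in cluster 2, low at 70.2 CPM.

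The 161 wells with at least 5000 UMIs that the study's annotation leaves out, which no comparison used, also held members, above the near-empty wells where no well had more than 1 UMI of a member. They held 1175 *Trh* UMIs in 16 wells, 9 of them at 1000 CPM or more, 66 *Trhr* UMIs in 7 wells, 157 *Trhde* UMIs in 20 wells, 1031 *Thra* UMIs in 118 wells and 61 *Thrb* UMIs in 6 wells. *Dio2* and *Dio3* had 0 there too.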

How the results depend on the processing

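Of 595 alternative values, 546 were labelled as the same as the main value, 23 as weaker, 9 as stronger, 10 as moved and 7 as reversed. The label of same allowed a value to move within limits, and these limits were not always the spread over plates. Some of the 546 also repeated the main fit exactly, as when the plate left out gave no sum of the cluster tested. The 546 therefore overstate how stable the results were. Members varying between clusters were 3 (3 to 4 with 1 plate left out), and 1 on the Q plates alone. Calls against the rest were 10 (8 to 10 with 1 plate left out), 19 with DESeq2 and 5 on the Q plates alone. Comparing the Q plates alone, and the AL and JM plates alone, was chosen after seeing the data. The counts for cluster 15 against cluster 9 (0), PVH against non-PVH (1), *Trh*-rich cells (0) and plate prefixes (0) kept their value in every alternative run. Without the plate block, which pairs sums of the same plate and so acts as the replicate block, the counts stayed at 3, 10, 0 and 1. The 10 calls were not the same ones, since *Thra* in cluster 1 was lost (edgeR adjusted p = 0.460) and *Trhde* in cluster 3 was gained.

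Signs turned as follows, none of them a call, and the cause was not tested. *Trh* in cluster 15 over cluster 9 was between -1.34 and 1.48 with 1 plate left out, positive only without JM8, and 1.02 on the Q plates alone. In clusters 9 and 15 alone, the points by which *Trh*-rich cells exceeded others were -9.45 for *Trhr*, -4.12 for *Trhde* and 1.43 for *Thra*. The log2 difference of Q over AL and JM plates was -0.94 for *Trh* in cluster 1 alone, and for *Thrb*, -0.38 with all plates, it was between -0.86 and 0.62 with 1 plate left out, positive without Q5. With every cell thinned to the same total, the share of PVH cells with a UMI was 14.2% for *Trh*, 11.8% for *Thrb* and 93.7% for *Thra*. Clusters 5 and 11 had too few cells per plate for any test, and neither cluster 9 on the AL and JM plates alone nor cluster 14 on the Q plates alone could be fitted.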
